A study of Mus musculus with 6 samples.

Results

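The 10 genes described here encode costimulatory and checkpoint receptors of T cells: *Icos*, *Cd28*, *Ctla4*, *Pdcd1*, *Btla*, *Cd160*, *Lag3*, *Tigit*, *Cd96* and *Cd226*. They were chosen by symbol from the 41195 genes of the count tables, and all 10 were found. The mRNA was sequenced from γδ thymocytes, thymic T cell precursors with a γδ antigen receptor, and the question was how loss of the transcription factor NFATc1 alters gene expression in these cells. There were 3 libraries from *Nfatc1fl/fl* control mice and 3 from *Rag1Cre-Nfatc1fl/fl* mice. Mice of both groups carried loxP sites around exon 3 of *Nfatc1* on a C57/B6 background and were matched for sex and age. In the second group Cre recombinase was in addition expressed from the *Rag1* locus, which acts in early thymocytes of the αβ and the γδ lineage alike and is not restricted to γδ cells. The cells were freshly isolated with a magnetic TCRγ/δ+ kit and were not stimulated.

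A T cell reads its antigen receptor signal together with signals from a second layer of surface receptors. CD28 and ICOS are costimulatory: they bind ligands of the B7 family and recruit phosphoinositide 3-kinase. CTLA-4 binds the same ligands as CD28 with higher affinity and lowers their availability, and PD-1 (*Pdcd1*), BTLA, CD160 and LAG-3 act mainly as inhibitory or modulating receptors. TIGIT, CD96 and CD226 share ligands of the nectin family, with CD226 as the activating and TIGIT as the inhibitory receptor. Many of these genes are switched on by antigen receptor signalling, in which NFAT factors take part, and ICOS is also known from innate-like T cells that leave the thymus in an activated state.

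The libraries held 20734771 to 22638531 gene reads each. The targeted gene was checked first: *Nfatc1* was at 67.3, 75.6 and 73.0 TPM in the control libraries and at 126, 146 and 85.6 TPM in the libraries labelled *Rag1Cre-Nfatc1fl/fl*, so its summed level was not lower in the latter. TPM is a level scaled to transcript length and to the library. Counts over the whole gene do not isolate the deleted exon. They are no check of the deletion or of the labels, and every direction below rests on the labels. *Rag1Cre-Nfatc1fl/fl* library 3 stood apart: its counts differed from those of the other two libraries of its group with a chi-square per degree of freedom of 71.3 and 64.0, against 7.95 to 17.9 for the other pairs of like libraries, and results that change without it are given both ways. The labels do not say whether libraries came from separate mice, so p-values measure the spread between these libraries. The γδ receptor genes were present, and the summed CPM (counts scaled to library depth) of 7 γδ T cell markers were 2649 to 2784 in control and 2667 to 2789 in *Rag1Cre-Nfatc1fl/fl* libraries. Of these 7 genes, *Trdc* and *Tcrg-C1*, constant regions of the receptor chains, fell by 0.80 and 0.65 on the log2 scale. *Cd3d* went the other way, from a mean of 459 to 676 CPM, without passing the test (log2 fold change 0.56 ± 0.156, adjusted p = 0.036 by edgeR). DESeq2 called 1 of the 7 higher and 2 lower. The 7 also include *Cd3d*, *Cd3e* and *Cd3g*, which αβ T cells express too, so the sum does not measure the share of γδ cells.

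In control γδ thymocytes the receptor genes spanned a wide range of levels. *Pdcd1* was by far the highest, at 584 ± 6.19 TPM (SD, n = 3), above 98.5% of the tested genes. *Cd96* followed with 127 ± 3.27 TPM and *Cd28* with 90.0 ± 9.37 TPM, and these 3 genes did not overlap between libraries. *Icos* at 37.7 ± 7.30 TPM, *Cd160* at 33.1 ± 2.48 TPM and *Cd226* at 29.8 ± 2.52 TPM formed a middle group in which each gene overlapped the next. *Btla*, *Tigit* and *Lag3* lay lower, at 19.8 ± 3.03, 11.8 ± 1.94 and 9.07 ± 0.701 TPM. *Ctla4* was at 1.61 ± 0.549 TPM, with 22 to 48 gene reads per library. Of these reads, 1 to 8 lay in introns and do not enter TPM.

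**Figure D1:**
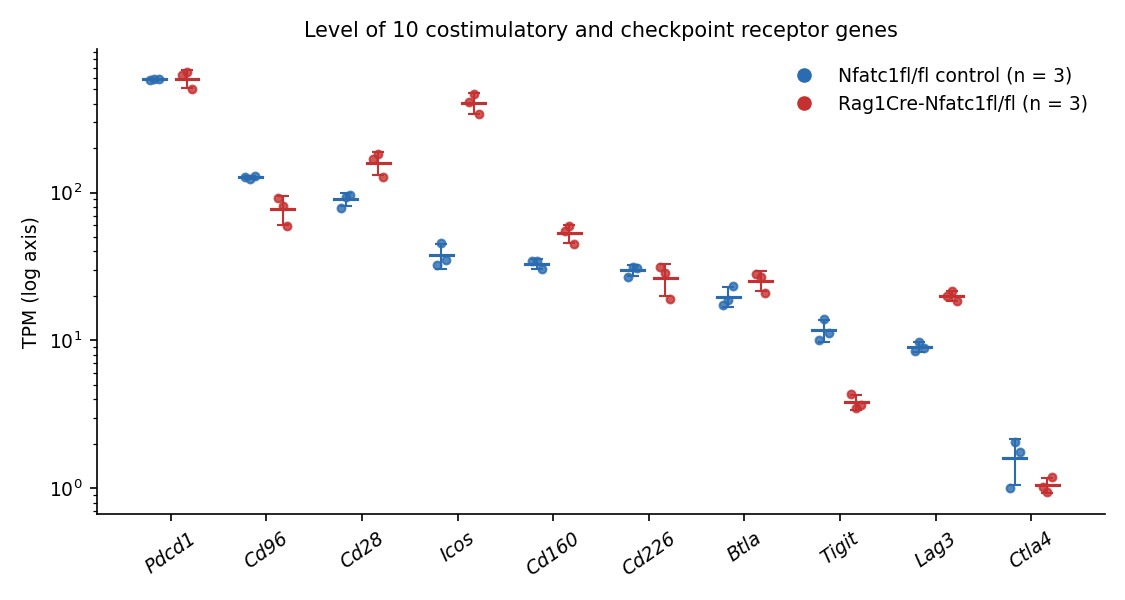
Level of the 10 receptor genes in TPM on a log axis, with 1 point per library, a bar at the mean and error bars of 1 SD (n = 3 libraries per group). The Rag1Cre-Nfatc1fl/fl points of Icos, at 338 to 466 TPM, lie above all control points of that gene, at 32.3 to 46.0 TPM, while Pdcd1 lies at about the same level in both groups.

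Between the genotypes, 4 of the 10 receptor genes rose (*Icos*, *Lag3*, *Cd28* and *Cd160*), 2 fell (*Tigit* and *Cd96*) and 4 did not pass the test (*Btla*, *Pdcd1*, *Cd226* and *Ctla4*). The rule for a change was an adjusted p under 0.01 in edgeR (quasi-likelihood F-test, Benjamini-Hochberg over 13185 tested genes) together with an absolute log2 fold change over 0.5. By this rule 9.98% of all tested genes changed, 6.47% higher and 3.51% lower. In 8 of the 10 receptor genes the CPM values of the 2 groups did not overlap, but this held for 46.7% of all tested genes. The median log2 fold change was 0.32 over the 10 genes and -0.0069 over all tested genes. In bulk RNA, a changed share of cells that express a gene and a changed amount of RNA per cell cannot be told apart.

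*Icos* had the largest change of the 10 genes. It was at 32.3, 46.0 and 34.8 TPM in the control libraries and at 409, 466 and 338 TPM in the *Rag1Cre-Nfatc1fl/fl* libraries. The groups were far apart, and the lowest *Rag1Cre-Nfatc1fl/fl* library lay above the highest control library several times over. The ratio of the mean TPM was 10.7, and the log2 fold change was 3.57 ± 0.144 (SE, adjusted p = 1.4e-05 by edgeR). With this change *Icos* moved from the fourth to the second place among the receptor genes, at 404 ± 64.3 TPM, and lay above 97.9% of the tested genes. The span of *Icos* (chromosome 1, 60977927 to 61000320, plus strand of GRCm38) shares 2485 bases with that of the predicted gene *Gm37039* on the same strand. *Gm37039* had at most 3 reads in any library.

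*Cd28*, which encodes the main costimulatory receptor of T cells, rose less. Its level was 79.3, 94.1 and 96.6 TPM in the control libraries and 170.0, 182 and 127 TPM in the *Rag1Cre-Nfatc1fl/fl* libraries. The groups did not overlap, and library 3 was the lowest of its group. The log2 fold change was 0.97 ± 0.101 (adjusted p = 0.00060 by edgeR). *Ctla4*, the inhibitory counterpart that lies between the other two genes, had 22, 48 and 41 reads in the control libraries and 28, 28 and 29 reads in the *Rag1Cre-Nfatc1fl/fl* libraries. The read counts overlapped, and the log2 fold change of -0.26 had a 95% interval from -1.04 to 0.53 (adjusted p = 0.61 by edgeR), so a change of up to about 2-fold in the lower direction was not detectable at this depth.

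Ratios within a library do not depend on how libraries are scaled, but they can depend on the kind of reads. The TPM ratio of *Icos* to *Cd28* was 0.407, 0.489 and 0.360 in the control libraries and 2.40, 2.56 and 2.65 in the *Rag1Cre-Nfatc1fl/fl* libraries. *Icos* was thus below *Cd28* in each control library and above it in each *Rag1Cre-Nfatc1fl/fl* library, and the log2 ratio differed by 2.61 (two-sided exact permutation p = 0.1). The log2 ratio of *Ctla4* to *Cd28* was lower by a mean difference of -1.37 (two-sided exact permutation p = 0.1), with no overlap between the groups. In CPM, which also counts intron reads, this difference was -1.15. For 3 against 3 libraries 0.1 is the smallest p the test can give, and it was also 0.1 after Benjamini-Hochberg adjustment over the 3 ratios tested.

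*Pdcd1*, the gene of the inhibitory receptor PD-1, kept its place as the highest of the 10 genes. It was at 578, 590.3 and 585 TPM in the control libraries and at 623, 650.1 and 499 TPM in the *Rag1Cre-Nfatc1fl/fl* libraries. In TPM library 3 lay below and the other two above all controls, whereas in TMM-scaled CPM, the scale of the test, all 3 lay above them, at 464, 497 and 464 against 417 to 434 CPM. The log2 fold change was 0.16 with a 95% interval from -0.019 to 0.35 (adjusted p = 0.17 by edgeR), which leaves room for a rise of the size of 0.35 but not for one like that of *Icos* or *Cd28*.

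*Btla* and *Cd160* encode receptors that share the ligand HVEM (*Tnfrsf14*). *Cd160* was at 34.4, 34.7 and 30.3 TPM in the control libraries and at 54.6, 59.2 and 45.2 TPM in the *Rag1Cre-Nfatc1fl/fl* libraries. The groups did not overlap, and *Cd160* rose by 0.82 ± 0.0959 on the log2 scale (adjusted p = 0.0010 by edgeR). Its 5′ end overlaps the start of *Pdzk1* on the other strand by 68 bases, and strand was not kept by the library kit. *Pdzk1* itself had 132 to 176 reads in control and 80 to 132 reads in *Rag1Cre-Nfatc1fl/fl* libraries.

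*Btla* was at 17.4, 18.8 and 23.2 TPM in the control libraries and at 28.2, 27.0 and 20.9 TPM in the *Rag1Cre-Nfatc1fl/fl* libraries. In TPM library 3 lay within the range of the controls, whereas in TMM-scaled CPM its 33.6 lay above the highest control at 28.9. The log2 fold change of 0.48 ± 0.112 (adjusted p = 0.018 by edgeR) missed both thresholds, and it passed them at 0.52 (adjusted p = 0.0043 by edgeR) without library 3. B cells also express *Btla*. The 6 B cell markers summed to 221 to 229 CPM in control and 111 to 129 CPM in *Rag1Cre-Nfatc1fl/fl* libraries. Nearly all of this sum was *Ighm*, at a mean of 199 and 105 CPM, and *Cd79b*, at 26.4 and 16.1 CPM. Both fell, and they were the only tested genes of this list. *Ms4a1*, *Cd79a*, *Pax5* and *Ebf1* were too low to be tested, with *Cd79a* the highest of them at a mean of 0.220 TPM in control. The sum thus does not measure the share of B cells. The part of other cells in the values of *Btla* was not tested.

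*Lag3*, a relative of *Cd4* whose product binds MHC class II, was low in controls and rose in the *Rag1Cre-Nfatc1fl/fl* libraries. It had 8.48, 9.84 and 8.87 TPM in the control libraries and 19.9, 21.6 and 18.6 TPM in the *Rag1Cre-Nfatc1fl/fl* libraries. The groups were well apart and the libraries within each group close together. The log2 fold change was 1.30 ± 0.114 (adjusted p = 0.00029 by edgeR), the second highest of the 10 genes, on 157 to 402 reads per library.

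Of the 3 members that bind nectin-like ligands, *Tigit* and *Cd96* fell and *Cd226* did not pass. *Tigit*, the inhibitory receptor of this group, was at 10.2, 13.9 and 11.2 TPM in the control libraries and at 4.34, 3.48 and 3.67 TPM in the *Rag1Cre-Nfatc1fl/fl* libraries. No *Rag1Cre-Nfatc1fl/fl* library reached the lowest control, and *Tigit* fell by 1.39 on the log2 scale (SE 0.219, adjusted p = 0.0038 by edgeR). The gene had 96 to 125 reads per control library and 33 to 46 reads per *Rag1Cre-Nfatc1fl/fl* library. The call was lost, at an adjusted p of 0.013, 0.023 and 0.020 by edgeR, without control library 1, 2 or 3 and, at 0.017, without *Rag1Cre-Nfatc1fl/fl* library 2, while the log2 fold change stayed between -1.51 and -1.27.

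*Cd96*, whose product binds the nectin-like ligand CD155 and is widely expressed on T and NK cells, was at 127, 124 and 130.3 TPM in the control libraries and at 92.5, 81.8 and 59.2 TPM in the *Rag1Cre-Nfatc1fl/fl* libraries. The controls were close together and all above the other group, in which library 3 was the lowest. *Cd96* fell by 0.58 on the log2 scale (SE 0.103, adjusted p = 0.0062 by edgeR). Without library 3 the log2 fold change was -0.49 (adjusted p = 0.00072 by edgeR), just inside the fold threshold, and without any single control library or *Rag1Cre-Nfatc1fl/fl* library 2 the adjusted p was 0.024 to 0.036.

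*Cd226*, the activating receptor for the same ligands, was at 26.9, 31.3 and 31.1 TPM in the control libraries and at 31.2, 28.5 and 19.1 TPM in the *Rag1Cre-Nfatc1fl/fl* libraries. The groups overlapped, and the log2 fold change of -0.23 had a 95% interval from -0.49 to 0.021 (adjusted p = 0.16 by edgeR). The TPM ratio of *Tigit* to *Cd226* was 0.378, 0.444 and 0.360 in the control libraries and 0.139, 0.122 and 0.192 in the *Rag1Cre-Nfatc1fl/fl* libraries. The ratio was lower in each *Rag1Cre-Nfatc1fl/fl* library, with a mean difference of -1.40 on the log2 scale (two-sided exact permutation p = 0.1). In CPM, which also counts intron reads, the difference was -1.15.

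Regulatory T cells and NK cells carry some of these receptors too. The 8 regulatory T cell markers summed to 220.4 to 234 CPM in control and 176 to 179 CPM in *Rag1Cre-Nfatc1fl/fl* libraries: *Il2ra* and *Ikzf2* fell, *Tnfrsf4* and *Tnfrsf18* rose, and the other 4 did not pass. *Foxp3*, which defines these cells, was at 0.391 to 0.696 TPM in control and 0.203 to 0.509 TPM in *Rag1Cre-Nfatc1fl/fl* libraries. The 7 NK cell markers summed to 40.7 to 60.1 and 38.1 to 43.1 CPM, and of the 5 tested only *Prf1* fell. The 9 markers of αβ and double-positive thymocytes overlapped between the groups, at 1615 to 1628 and 1145 to 1927 CPM. In *Rag1Cre-Nfatc1fl/fl* libraries their sum was lowest in library 2 and highest in library 3, outside the control range in both. Of these markers, 0 were called by edgeR or DESeq2 (2 had an unadjusted p under 0.05 in edgeR). *Trac*, the constant region of the α chain, went from a mean of 31.5 to 43.6 CPM. Its log2 fold change of 0.47 ± 0.0875 (adjusted p = 0.0078 by edgeR) passed the p limit but not the fold limit. *Trbc1*, *Trbc2* and *Dntt* went the other way, at -0.25, -0.048 and -0.64, and did not pass. The part of such cells in the change of *Tigit*, *Cd96*, *Icos* or *Cd28* was not tested.

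The sequence just before the start is shown for the called receptor genes found in the promoter table, because the deleted factor binds DNA at a core GGAAA. RefSeq (GRCm38.p6) gave 7 promoters for 6 of the 10 genes, and *Icos*, *Cd28*, *Lag3* and *Cd226* had no entry. Each line gives the 250 bases before a RefSeq start, 5′ to 3′ on the strand of the gene, with GGAAA and its reverse complement TTTCC in capitals. The regions are chr16:43664185-43664434 for *Tigit*, chr16:46120249-46120498 for *Cd96* and chr3:96814522-96814771 for the inner of 2 starts of *Cd160*, all on the minus strand. The region before the outer start of *Cd160* lies in *Pdzk1* and is not printed.
Tigit: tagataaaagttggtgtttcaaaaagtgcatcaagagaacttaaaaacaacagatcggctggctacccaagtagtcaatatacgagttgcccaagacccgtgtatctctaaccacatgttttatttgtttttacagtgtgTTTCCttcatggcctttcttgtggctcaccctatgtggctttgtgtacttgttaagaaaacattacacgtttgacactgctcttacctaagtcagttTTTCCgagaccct
Cd96: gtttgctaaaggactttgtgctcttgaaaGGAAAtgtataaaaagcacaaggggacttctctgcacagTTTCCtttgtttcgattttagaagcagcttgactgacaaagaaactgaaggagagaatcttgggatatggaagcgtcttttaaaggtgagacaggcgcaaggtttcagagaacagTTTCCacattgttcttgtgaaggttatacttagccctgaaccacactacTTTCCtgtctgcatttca
Cd160: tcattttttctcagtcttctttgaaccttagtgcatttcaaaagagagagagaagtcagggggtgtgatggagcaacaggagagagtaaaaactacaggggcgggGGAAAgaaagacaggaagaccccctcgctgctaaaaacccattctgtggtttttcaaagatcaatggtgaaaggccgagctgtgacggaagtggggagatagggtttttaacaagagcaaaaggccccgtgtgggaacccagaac

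*Tigit* and *Cd96*, which fell, held 2 and 4 matches, and *Cd160*, which rose, held 1 at the inner and 0 at the outer start. *Icos*, *Cd28* and *Lag3*, which also rose, had no entry, so the genes that rose and fell cannot be compared here. Of the genes that did not pass, *Pdcd1* held 2 matches, *Ctla4* 1 and *Btla* 0. Among the 32851 promoters of the table, 55.6% held at least 1 match, 21.4% at least 2 and 1.59% at least 4. These matches describe the letters only, and binding was not tested.

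**Figure D2:**
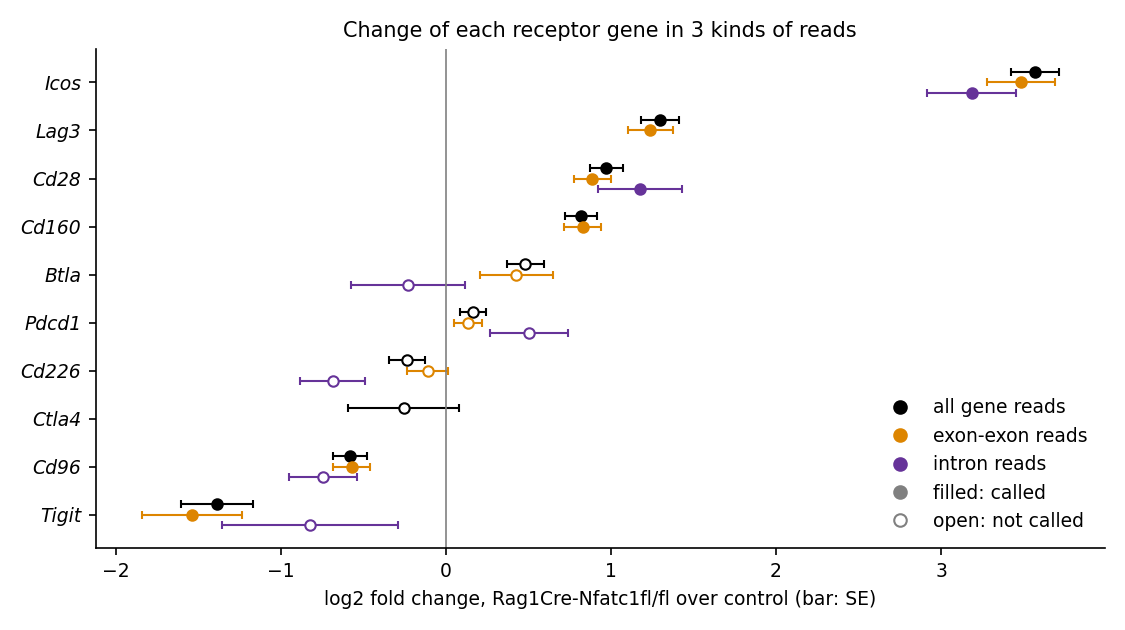
Log2 fold change of each receptor gene, Rag1Cre-Nfatc1fl/fl over control, with SE bars, in all gene reads, exon-exon reads and intron reads (6 libraries). Filled points were called and open points were not. Icos lies at 3.57, 3.48 and 3.19 in the 3 kinds of reads, and for Ctla4 the last 2 kinds were too few to test.

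Reads that span a splice junction and reads within introns were also counted. Both are parts of the gene reads tested above, so like results in them are not an independent check of the first calls. In exon-exon reads the same 6 receptor genes were called in the same direction among the 9 that could be tested, against 7.88% of all genes tested in these reads. *Tigit* changed by -1.54 ± 0.304 and *Cd96* by -0.57 ± 0.109 on the log2 scale in them (adjusted p = 0.0097 and 0.0086 by edgeR). In intron reads 7 of the 10 genes could be tested and 2 were called, *Icos* and *Cd28*, against 3.78% of all genes tested. *Icos* had 11, 12 and 8 intron reads in the control libraries and 84, 95 and 68 in the *Rag1Cre-Nfatc1fl/fl* libraries, a log2 fold change of 3.19 ± 0.267 (adjusted p = 2.5e-07 by edgeR). *Cd28* had 22, 23 and 23 intron reads in controls and 43, 56 and 35 in the other group, a log2 fold change of 1.18 ± 0.254 (adjusted p = 0.0058 by edgeR). The rise of both genes was thus present in intron as well as exon-exon reads. Without any one library other than *Rag1Cre-Nfatc1fl/fl* library 3 the intron reads of *Cd28* no longer passed, with an adjusted p of 0.013 to 0.047 by edgeR and a log2 fold change of 1.06 to 1.21, while those of *Icos* passed each time.

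*Cd226* had the highest number of intron reads of the 10 genes in each library, at 31.1% ± 1.84 of its reads in control and 21.6% ± 2.24 in *Rag1Cre-Nfatc1fl/fl* libraries. The counts were 247, 304 and 260 in controls and 159, 147 and 130 in the other group, and the groups did not overlap. The log2 fold change of its intron reads was -0.69 ± 0.195 (adjusted p = 0.039 by edgeR), outside the threshold, and that of its exon reads was -0.05 (adjusted p = 0.80 by edgeR). *Cd96* was similar in both kinds, at -0.74 ± 0.206 in intron reads (adjusted p = 0.033 by edgeR). *Lag3* and *Cd160*, which rose in gene reads, had too few intron reads to be tested, with 6 and 26 over the 3 control libraries.

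**Figure D3:**
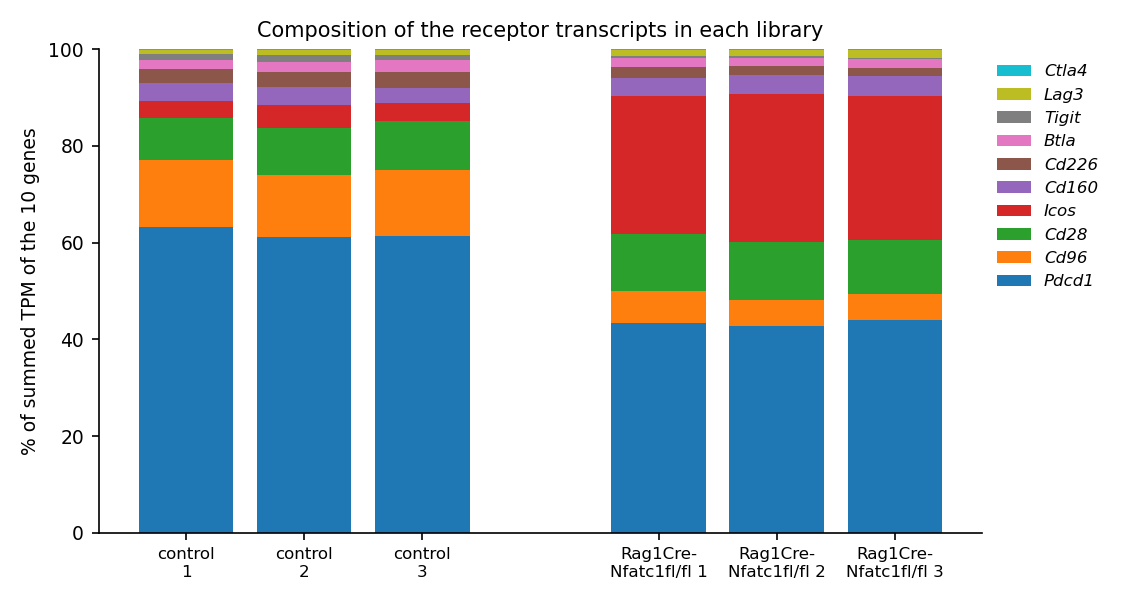
Share of each receptor gene in the summed TPM of the 10 genes, in percent, with 1 stacked bar per library. The Icos share is 3.53% to 4.77% in control libraries and 28.5% to 30.7% in Rag1Cre-Nfatc1fl/fl libraries.

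Seen as one pool, the receptor transcripts changed in size and make-up. Their summed level was 944 ± 26.0 TPM in control and 1362 ± 204 TPM in *Rag1Cre-Nfatc1fl/fl* libraries. *Icos* made up 3.98% ± 0.683 of this sum in controls and 29.7% ± 1.08 in *Rag1Cre-Nfatc1fl/fl* libraries. The share of *Pdcd1*, whose level did not pass the test, was 61.9% ± 1.09 and 43.4% ± 0.679, and that of *Cd96* 13.5% ± 0.570 and 5.69% ± 0.665. *Cd28* changed less, from 9.52% ± 0.766 to 11.7% ± 0.390. In library 3 the level of 8 receptor genes in TPM, and of 5 in TMM-scaled CPM, was the lowest of the *Rag1Cre-Nfatc1fl/fl* libraries, but its make-up was like that of the other two, with *Icos* at 29.8%. In the order of levels in *Rag1Cre-Nfatc1fl/fl* libraries, *Pdcd1*, *Icos* and *Cd28* came first without overlap, *Cd96* overlapped *Cd160*, the next run of *Cd226*, *Btla* and *Lag3* overlapped each with the next, and *Tigit* and *Ctla4* were lowest.

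**Figure D4:**
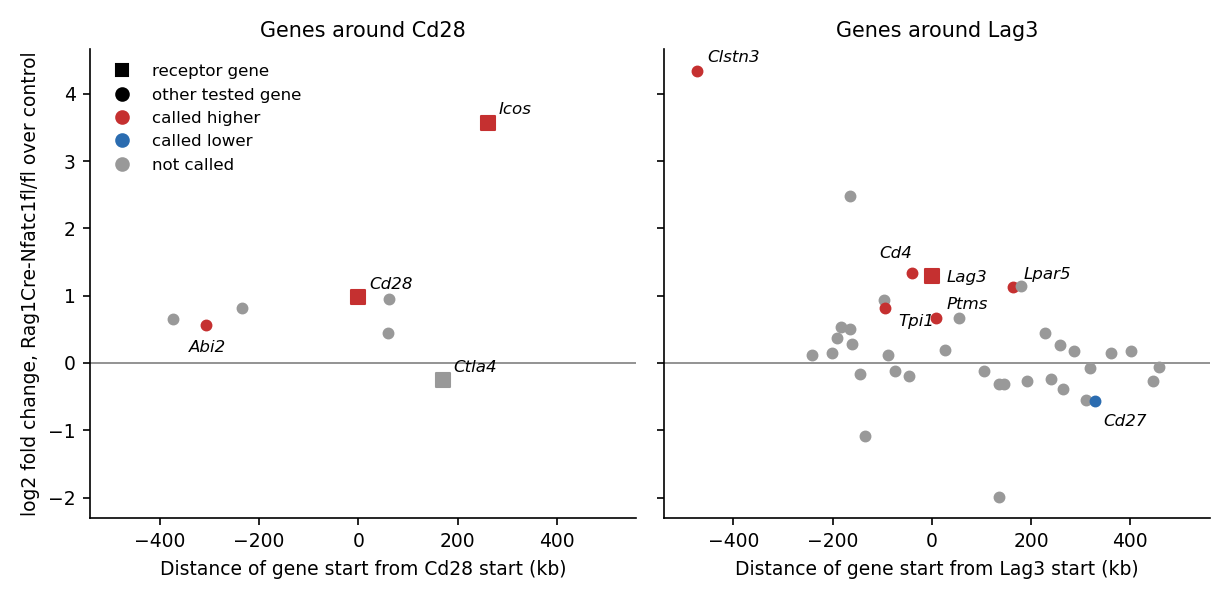
Log2 fold change, Rag1Cre-Nfatc1fl/fl over control, of tested genes against the distance of their start from the start of Cd28 (left) and Lag3 (right) in kb. Squares are receptor genes. Icos at 3.57 lies 261 kb and Ctla4 at -0.26 lies 170 kb from Cd28, and Cd4 at 1.34 lies next to Lag3.

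*Cd28*, *Ctla4* and *Icos* lie in this order on the plus strand of chromosome 1, with starts 170 kb and then 90.9 kb apart. The outer genes rose while *Ctla4* between them, at 1.05 ± 0.123 TPM in *Rag1Cre-Nfatc1fl/fl* libraries, stayed near the lower end of the measured range. Within 500 kb of the start of a receptor gene, 82 other genes were tested, of which 7 rose and 1 fell, in all 8 of 82 against 9.98% of all genes. This count was 3 or 4 without a control library or *Rag1Cre-Nfatc1fl/fl* library 2, and 15 without library 3. Calls over all genes, 1316 with every library, were 488 to 629 and 1796 in these fits. Of the 8 called neighbours, most lay around *Lag3*. There, on chromosome 6, *Clstn3*, *Tpi1*, *Cd4*, *Ptms* and *Lpar5* rose and *Cd27* fell among 38 tested genes. *Cd4*, the coreceptor gene whose start lies at -39.7 kb from that of *Lag3* in genome coordinates, had a mean of 31.5 CPM in control and 79.7 CPM in *Rag1Cre-Nfatc1fl/fl* libraries, a log2 fold change of 1.34 ± 0.123 (adjusted p = 0.00035 by edgeR), close to that of *Lag3*. *Abi2* near *Cd28* and *Cd200r1* near *Btla* also rose, and, receptor genes aside, no called gene lay within 500 kb of *Icos*, *Pdcd1*, *Tigit*, *Cd96*, *Cd160* or *Cd226*. *Tigit*, *Btla* and *Cd96* are all on chromosome 16.

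**Figure D5:**
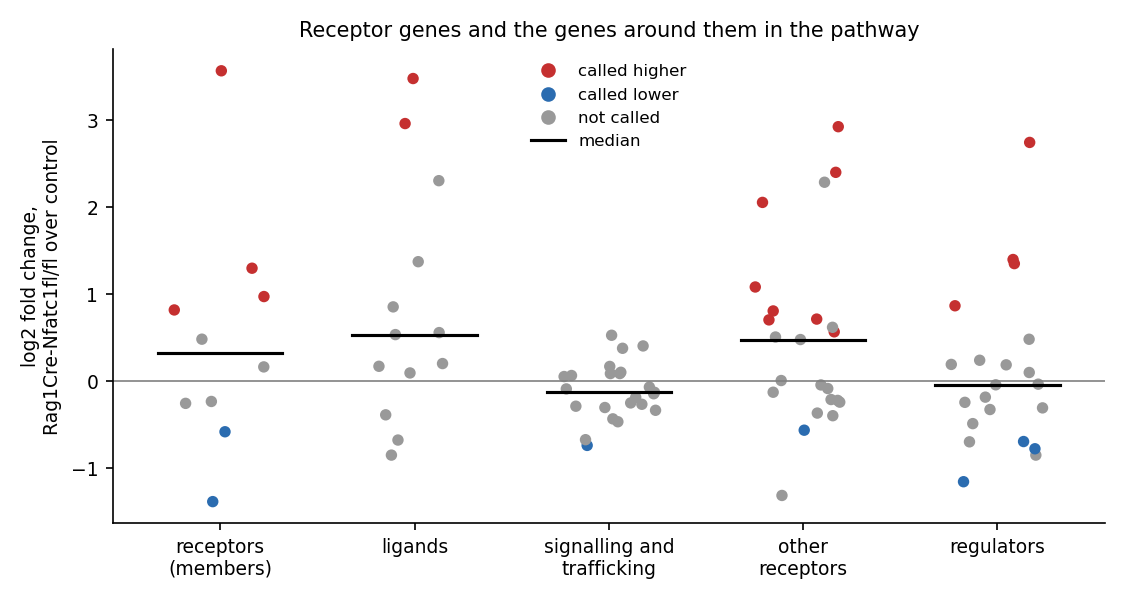
Log2 fold change, Rag1Cre-Nfatc1fl/fl over control, of the 10 receptor genes and of the tested genes of 4 lists around them, with 1 point per gene and a line at the median. Medians lie at 0.32 for the receptors, 0.54 for ligands, -0.13 for signalling partners, 0.48 for other receptors and -0.04 for regulators.

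Genes of 4 lists around these receptors were read in the same fit, against the 9.98% of all genes called. Calls over all genes also changed when a library was left out, which bears on the counts below. From 1316 they became 488, 541 and 488 without control library 1, 2 and 3. Without *Rag1Cre-Nfatc1fl/fl* library 1, 2 and 3 they became 1002, 629 and 1796. Of 13 tested ligand genes, 2 rose and 11 did not pass. *Lgals3*, a galectin that binds LAG-3, was at 20.3, 17.0 and 15.9 TPM in the control libraries and at 114, 172 and 236 TPM in the *Rag1Cre-Nfatc1fl/fl* libraries, with no overlap (log2 fold change 3.48 ± 0.340, adjusted p = 0.00047 by edgeR). *Nectin1* was at 0.285 ± 0.142 TPM in controls and rose by 2.96 ± 0.319 (adjusted p = 0.00072 by edgeR). Chosen after their values were seen as ligands of single receptors, these did not pass: *Cd274* (PD-L1) at 7.94 ± 0.654 and 8.47 ± 2.03 TPM, *Tnfrsf14* at 9.92 ± 0.504 and 9.64 ± 2.86 TPM and *Icosl* at 1.38 ± 0.164 and 0.779 ± 0.257 TPM. Antigen-presenting cells carry many of these ligands. The 7 macrophage markers summed to 17.7 to 76.5 CPM in control and 44.8 to 228 CPM in *Rag1Cre-Nfatc1fl/fl* libraries, highest in library 3, and 0 of 7 were called by edgeR or DESeq2 (3 had an unadjusted p under 0.05 in edgeR). The 7 dendritic cell markers summed to 2.95 to 4.26 and 5.05 to 8.18 CPM, with 0 of 4 tested genes called by edgeR (2 at an unadjusted p under 0.05) and 1 called higher by DESeq2. The part of such cells in the ligand values was not tested.

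Of 23 signalling and trafficking partners, *Grap2*, an adaptor recruited by CD28, fell (-0.74 ± 0.116, adjusted p = 0.0036 by edgeR), and 22 did not pass. The count was 0 without any one control library or *Rag1Cre-Nfatc1fl/fl* library 2, and 4 without library 3. The kinase gene *Lck* was at 715 ± 27.9 TPM in control and 677 ± 19.7 TPM in *Rag1Cre-Nfatc1fl/fl* libraries, and *Csk*, a kinase gene that restrains it, at 373 ± 26.0 and 360.0 ± 43.3 TPM.

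Of 23 tested genes of further costimulatory and inhibitory receptors, 8 rose, 1 fell and 14 did not pass. *Pvrig*, an inhibitory receptor for nectin-2, was at 6.12 ± 1.37 TPM in control and 22.8 ± 3.84 TPM in *Rag1Cre-Nfatc1fl/fl* libraries (log2 fold change 2.06 ± 0.213, adjusted p = 0.00060 by edgeR), so this receptor of the nectin group rose while *Tigit* and *Cd96* fell. *Cd5*, a brake on antigen receptor signalling, rose by 0.70, *Slamf6* by 0.81, and the tumour necrosis factor receptor genes *Tnfrsf18* (GITR) and *Tnfrsf4* (OX40) by 0.71 and 2.40, the last from 0.459 ± 0.226 TPM. *Cd27*, a costimulatory receptor of the same family that was at 397 ± 5.84 TPM in controls, fell by 0.56. The other 3 genes that rose were *Klrg1*, *Cd6* and *Cd200r1*, named here after their values were seen. The count of 9 called genes of this list was 1 without any one control library, 4 and 2 without *Rag1Cre-Nfatc1fl/fl* library 1 and 2, and 10 without library 3.

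Among 21 genes that regulate the expression of such receptors, 4 rose and 3 fell. *Zbtb16* (PLZF), the factor of innate-like T cells, was at 8.74 ± 2.75 TPM in control and 54.2 ± 19.5 TPM in *Rag1Cre-Nfatc1fl/fl* libraries (log2 fold change 2.75 ± 0.255, adjusted p = 0.00037 by edgeR). *Irf4* rose by 1.35 and *Nfatc1* itself, in whole-gene counts, by 0.87, and *Tbx21* (T-bet), named after its values were seen, by 1.40. *Tox2*, a relative of *Tox*, fell from 77.4 ± 1.44 to 31.5 ± 4.61 TPM (log2 fold change -1.16 ± 0.0798, adjusted p = 9.3e-05 by edgeR), and *Foxo1* and *Tcf7* fell by 0.78 and 0.69. The 7 calls of this list became 4, 4 and 3 without control library 1, 2 and 3.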

How the data were processed

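The labels gave groups and replicate numbers. Per the labels, poly(A) RNA of magnetically isolated γδ thymocytes was made into libraries that do not keep strand. In the study's methods, single-end reads were trimmed, aligned with STAR to GRCm38 and counted by the authors with featureCounts. The deposited tables hold whole-number read counts per gene (total, unique, exon, exon-exon and intron reads), a layout that featureCounts does not write, and the program behind them is not stated. The submitters' processing notes name GRCm 38.

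Here total gene read counts went into edgeR 4.0.16 under R 4.3.3 (filterByExpr, TMM, glmQLFit, glmQLFTest, with genotype alone in the model), adjusted by the Benjamini-Hochberg method over 13185 genes. TPM was computed from exon reads and exon length, and CPM was scaled with TMM. Marker lists were summed in CPM because receptor constant regions have no exon length in the tables. Gene reads were 94.1% to 95.4% unique, and intron reads 1.94% to 2.53% of all. SD is over 3 libraries per group. The SE of a log2 fold change and its 95% interval were derived from the edgeR quasi-likelihood test on all 6 libraries. The steps were tested on simulated counts. Alternatives were other scalings and filters, DESeq2 1.42.0, limma-voom (limma 3.58.1), other kinds of reads, a replicate block and leaving out each library. The named genes were all 10 receptor genes, up to 6 called members of each list by adjusted p with otherwise members of high TPM, and called neighbours. The members and lists were chosen with earlier results of these data known. The deposited TPM served only to check the computed TPM (largest relative difference 4.03e-05), and RPKM was not used. A marker gene of 1 list is not reported here.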

Additional observations from a re-analysis of the deposited data

How the results depend on the processing

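Of 179 values of the 10 receptor genes under alternatives, 167 kept their direction and side of the threshold, 10 lost a call, 2 gained one and 0 reversed. The calls of *Icos*, *Cd28*, *Lag3* and *Cd160* held under all 18 alternatives each. *Btla* passed with an adjusted p under 0.05 and no fold limit and without *Rag1Cre-Nfatc1fl/fl* library 3. With a replicate block, *Tigit* had a log2 fold change of -1.39 and an adjusted p of 0.012 by edgeR, so 1 receptor gene was called lower. After subtraction of the group means, control and *Rag1Cre-Nfatc1fl/fl* libraries of like number correlated with 0.026, 0.18 and 0.0055. Those of unlike number correlated with -0.15 to 0.094. Such correlations cannot tell whether libraries of like number share more than the number. The block called 778 genes higher and 393 lower.

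Over all genes, 1316 calls became 1992 with DESeq2, 850 in exon-exon reads (chosen after seeing the data), 3073 at an adjusted p under 0.05 without a fold limit and 488 to 1796 without one library. With library size alone (chosen after seeing the data) the median log2 fold change of all genes was -0.11, with 700 genes higher and 578 lower against 853 and 463. Without control library 1, 2 or 3 the higher calls were 388, 419 and 380 and the lower ones 100, 122 and 108. Leaving out one library gave 4 to 5 receptor genes higher and 0 to 2 lower, 1 to 2 in intron reads, 2 ligands, 0 to 4 signalling partners, 1 to 10 other receptors, 3 to 9 regulators and 3 to 15 neighbours. No receptor gene was called lower without any one control library or *Rag1Cre-Nfatc1fl/fl* library 2, and 1 was without library 3. At an adjusted p under 0.05 there were 4 receptor genes in intron reads, 7 signalling partners and 23 neighbours. Signalling partners numbered 3 with DESeq2, no filter, library size alone or the length trend removed (also chosen after seeing the data), and 2 with unique reads, upper-quartile factors or the block. Neighbours numbered 16 with DESeq2, 15 without a filter and 5 in exon-exon reads, where 1 ligand was called. The cause of these shifts was not tested. The 3 ratios kept their direction throughout. *Ctla4* and *Tigit* rest on few reads, which limits their precision, and intervals cover these libraries only.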
